A study of Strongylocentrotus purpuratus with 2 samples.

Results

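Neurons acquire their type partly through homeobox genes, which encode transcription factors that bind DNA through a homeodomain. In bilaterian animals, different combinations of these factors mark different kinds of neuron and the progenitors that give rise to them. Sea urchin embryos form neurons in the ectoderm, at the apical pole and along the ciliary band, and SoxC family factors act in cells that have begun to become neurons. Described here are 8 homeobox genes of the purple sea urchin Strongylocentrotus purpuratus whose relatives are known from neuron types in other animals: Sp-Otp, Sp-Hbn, Sp-rx, Sp-lhx2, Sp-Isl, Sp-Hb9, Sp-Nkx6-1 and Sp-Mbx1. They were taken by gene name, and each name stood on 1 of the 12943 transcript models that had a value.

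The embryos developed in artificial sea water at 15 °C, and RNA was extracted from whole embryos 30 hours after fertilization, from about 1000 embryos per sample. In 1 sample the fertilized eggs had been microinjected with a morpholino against soxC, an antisense oligonucleotide that blocks translation or splicing of its target. In the other sample they had been microinjected with glycerol, so both samples went through injection. Genotypes are not given in the labels, and no library here came from embryos given a control morpholino. An effect of lowering SoxC therefore cannot be told apart from an effect that any morpholino might have, or from a difference in culture or stage between the samples.

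Each group had 1 library, with 4763998 recovered reads in the library labelled SoxC morpholino and 4414508 in the glycerol control. There was thus no spread between samples and no test between the conditions, and every interval in parentheses is a 95% interval that covers counting error only. The targeted transcript, Sp-SoxC, was at 38052.2 units of normalized signal in the library labelled SoxC morpholino, against 10632.2 in the glycerol control, a ratio of 3.58 (3.46 to 3.71). The targeted transcript was thus higher, not lower, in the library labelled as its knockdown. How far SoxC protein was lowered is not given here, and a transcript level does not measure a block of translation. Whether the labels are right was not tested, and the directions below depend on them. The most abundant model took 19.6% of reads in the library labelled SoxC morpholino and 6.75% in the glycerol control. Of 18 markers of germ layers and embryonic territories, 11 had a value and all 11 had reads in both libraries, and they covered 7 of the 8 territories listed. The ciliary band had no marker with a value.

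By a size rule, 4 of the 8 genes had lower levels in the library labelled SoxC morpholino, none was higher, 3 met neither direction and 1 lay under the level floor. The lower ones were Sp-Otp, Sp-Nkx6-1, Sp-Hb9 and Sp-lhx2, by 2.42-fold to 5.96-fold. Sp-Isl, Sp-Hbn and Sp-rx met neither direction, and Sp-Mbx1 had too few reads to compare. The rule asked for a mean level of at least 1 CPM, the read count relative to the library total, a ratio of at least 2-fold and a counting interval that excludes a ratio of 1. By the same rule 4.75% of the 8819 models past the floor were lower and 0.658% were higher. The genes were proposed with results of this comparison known, so their count is a description and is not read against those percentages.

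**Figure D1:**
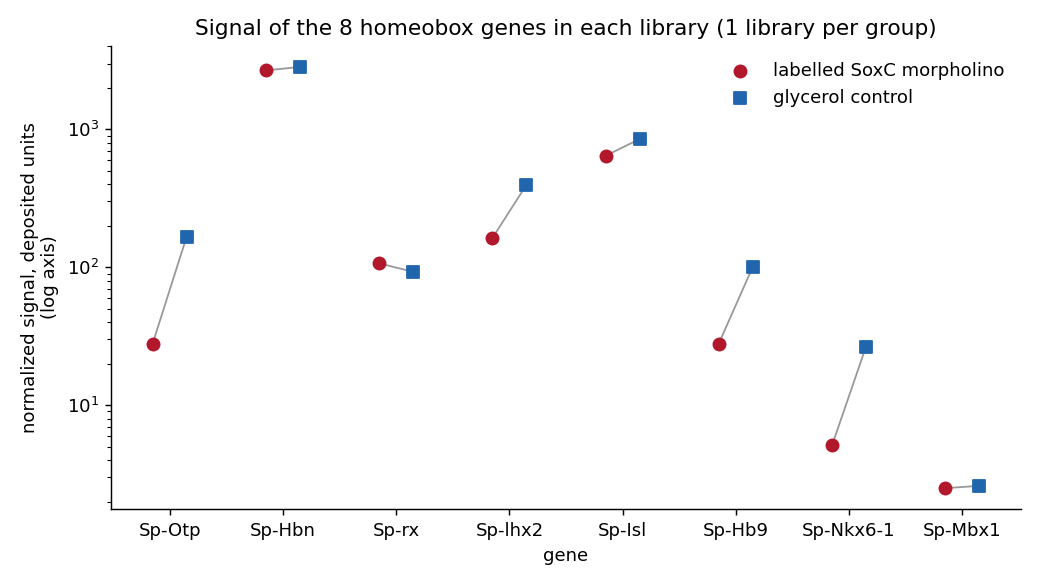
Normalized signal (deposited units, log axis) of each of the 8 genes, with the library labelled SoxC morpholino as a circle on the left and the glycerol control as a square on the right, 1 library each. Sp-Otp, Sp-lhx2, Sp-Hb9 and Sp-Nkx6-1 have the steepest lines, while Sp-Hbn lies at 2678.6 and 2835.4 units.

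Sp-Otp, Sp-Hbn and Sp-rx belong to the paired class of homeobox genes. Orthopedia, the relative of Sp-Otp, is needed for neurosecretory neurons of the vertebrate hypothalamus, and in sea urchins it is also known from oral ectoderm cells near the forming skeleton. Sp-Otp (WHL22.286934.0) was at 28.0 units in the library labelled SoxC morpholino, against 166.8 in the glycerol control. These values rest on 11 and 63 reads. The transcript was 5.96-fold lower (3.12 to 12.5), the largest fold among the 8 genes, and ranked 43rd from the lowest log2 ratio of 8819 models.

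Sp-Hbn is named after homeobrain, a gene of the anterior brain in Drosophila, and its sea urchin counterpart is active around the apical plate. Sp-Hbn (WHL22.523959.1) was at 2678.6 units in the library labelled SoxC morpholino, against 2835.4 in the glycerol control, from 1053 and 1071 reads. The ratio of 0.945 (0.867 to 1.03) makes it the most precisely counted of the 8, and as deposited its interval includes 1. Its direction depended on the scaling: the log2 ratio was -0.08 as deposited and 0.13 relative to the median of all models. On that relative scale the interval narrowly excluded 1, with the higher level in the library labelled SoxC morpholino. The gene met neither direction of the rule on either scale.

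Sp-rx is related to the retinal homeobox genes, which act in the eye field and anterior brain of vertebrates. It was at 106.8 units in the library labelled SoxC morpholino, against 92.7 in the glycerol control, from 42 and 35 reads (WHL22.523971.0). This was the 1 gene of the 8 with the higher value in the library labelled SoxC morpholino as deposited, at a ratio of 1.15 (0.719 to 1.86), an interval that includes 1.

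Within these paired-class genes the libraries thus differed unequally. The ratio of Sp-Hbn between the libraries was 5.63 times that of Sp-Otp (2.92 to 11.9), and the ratio of Sp-rx was 6.87 times that of Sp-Otp (2.98 to 16.5). Sp-rx and Sp-Hbn could not be separated, at 1.22 times (0.754 to 1.99). Such a comparison of ratios uses the reads of both genes in the same libraries and does not depend on the scaling between them.

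Sp-lhx2 and Sp-Isl encode LIM homeodomain factors, which carry LIM domains beside the homeodomain. Relatives of Sp-lhx2 act in the vertebrate forebrain and eye. The Sp-lhx2 model (WHL22.91758.0) was at 162.8 units in the library labelled SoxC morpholino, against 394.5 in the glycerol control, from 64 and 149 reads. It was 2.42-fold lower (1.8 to 3.30), the lower gene with the most reads. The same model also carries the name Sp-Lim-containing1, and reads of the 2 gene predictions cannot be separated.

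Islet genes, the relatives of Sp-Isl, act in motor and sensory neurons of vertebrates. Sp-Isl (WHL22.143854.0) was at 643.6 units in the library labelled SoxC morpholino, against 849.8 in the glycerol control, from 253 and 321 reads. It was 1.32-fold lower (1.12 to 1.56), short of the 2-fold limit. Relative to the median of all models it was 1.14-fold lower (0.967 to 1.35), and the interval then included 1. The ratio of Sp-Isl was 1.83 times that of Sp-lhx2 (1.30 to 2.61), so the LIM pair also differed by more than counting error.

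Sp-Hb9 and Sp-Nkx6-1 are related to vertebrate genes of the motor neuron pathway: Hb9 marks motor neurons, and Nkx6-1 acts in ventral progenitors of the neural tube. Both relatives also act in the pancreas. Sp-Hb9 (WHL22.107381.0) was at 28.0 units in the library labelled SoxC morpholino, against 100.6 in the glycerol control, from 11 and 38 reads. It was 3.60-fold lower (1.8 to 7.80).

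Sp-Nkx6-1 (WHL22.567494.0) was at 5.1 units in the library labelled SoxC morpholino, against 26.5 in the glycerol control, from 2 and 10 reads. The fold of 5.20 was close to that of Sp-Otp, but its interval ran from 1.11 to 48.8. Relative to the median of all models it was 4.51-fold lower (0.960 to 42.3), and the gene no longer met the rule. The mean level of 1.34 CPM was just above the floor. Sp-Hb9 and Sp-Nkx6-1 could not be separated from each other, at a ratio of ratios of 1.45 (0.247 to 15.4).

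Sp-Mbx1, of the paired class, shares its name with a homeobox gene of the vertebrate midbrain. It had 1 read in each library, 2.5 units in the library labelled SoxC morpholino and 2.6 in the glycerol control (WHL22.357718.0). The counting interval of its ratio ran from 0.0122 to 75.4, so no difference was detectable at this depth in either direction.

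**Figure D2:**
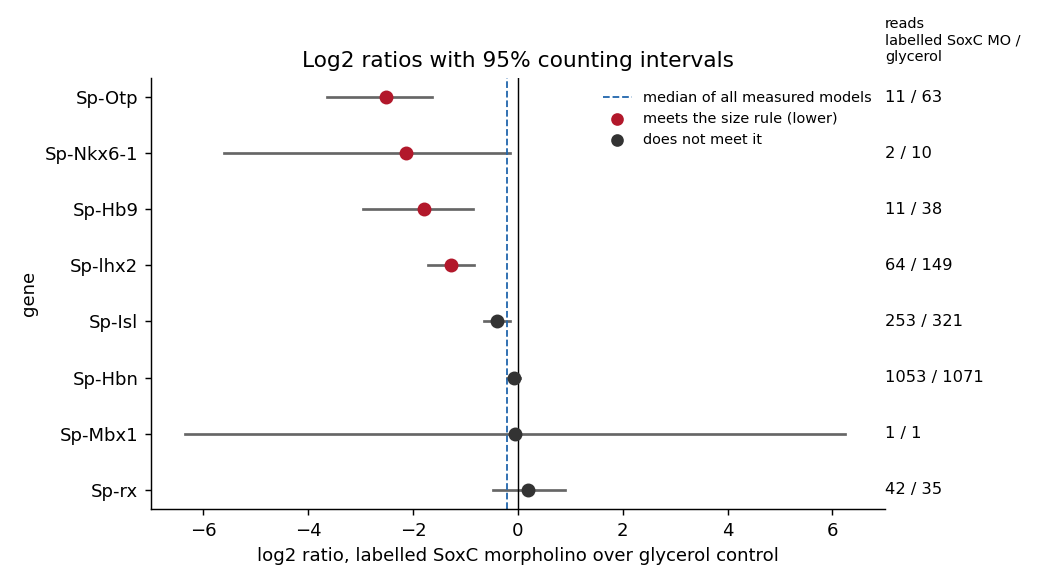
Log2 ratio (labelled SoxC morpholino over glycerol control) for the 8 genes (x axis), with 95% counting intervals as bars and the reads of both libraries at the right. The dashed line marks the median of all measured models, at -0.21, and the interval of Sp-Mbx1 runs from -6.35 to 6.24.

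All measured models had a median log2 ratio of -0.21, and the genes were also placed relative to it. Sp-Otp lay at -2.32, Sp-Nkx6-1 at -1.92, Sp-Hb9 at -1.59 and Sp-lhx2 at -1.06 on that relative log2 scale. Sp-Isl was at -0.19, Sp-Hbn at 0.13, Sp-Mbx1 at 0.15 and Sp-rx at 0.41, so 5 of the 8 genes lay below the median of all models and 3 above it. The place of Sp-Mbx1 rests on 1 read in each library, and under the floor it could not meet the rule. The median of the 8 log2 ratios was -0.84 as deposited, or -0.63 relative to all models. It takes in Sp-Mbx1, while the median of all models takes only models past the floor. Among the 7 genes past the floor the middle value was that of Sp-lhx2, at -1.27 as deposited. On the relative scale 3 of the 8 met the rule as lower, Sp-Otp at 5.16-fold (2.70 to 10.9), Sp-Hb9 at 3.11-fold (1.56 to 6.75) and Sp-lhx2 at 2.10-fold (1.56 to 2.86), beside 2.38% of all models past the floor. None met it as higher, beside 1.55% of all models. The lower genes had between 12 and 213 reads over both libraries. Among the 5116 models with read counts in that range, 7.17% were lower as deposited and 3.60% relative to the median of all models. The range was set by the lower genes themselves, so these percentages are background and no test of the 8 genes.

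Ordered by their ratio, the genes ran from Sp-Otp through Sp-Nkx6-1, Sp-Hb9, Sp-lhx2, Sp-Isl, Sp-Hbn and Sp-Mbx1 to Sp-rx. Of the 7 pairs of neighbours in this order, 2 had an interval of the ratio of ratios that excluded 1. These were Sp-lhx2 against Sp-Isl, given above, and Sp-Isl against Sp-Hbn, where the ratio of Sp-Hbn was 1.25 times that of Sp-Isl (1.03 to 1.51). Over all 28 pairs, 13 intervals excluded 1, none of them a pair with Sp-Mbx1. These intervals are not adjusted for the number of pairs. Sp-Otp, Sp-Nkx6-1 and Sp-Hb9 could not be ordered among themselves, and Sp-lhx2 was separated from Sp-Otp, at 2.46 times its ratio (1.18 to 5.51), but not from Sp-Hb9, at 1.48 times (0.688 to 3.42).

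The summed level of the 8 genes was dominated by Sp-Hbn. The genes together had 1437 reads in the library labelled SoxC morpholino and 1688 in the glycerol control, a sum 1.22-fold lower (1.14 to 1.31). Without Sp-Hbn the sums were 384 and 617 reads, 1.67-fold lower (1.47 to 1.90). Of these, 253 and 321 were reads of Sp-Isl, which met neither direction of the rule. The folds of both sums are as deposited, where all measured models had a median log2 ratio of -0.21. Sp-Hbn took 73.3% of the reads of the 8 genes in the library labelled SoxC morpholino (exact binomial interval 70.9 to 75.6) and 63.4% in the glycerol control (61.1 to 65.7). Transcript lengths are not part of the tables, so levels were not ranked between genes. The RNA came from whole embryos, where fewer cells of a type and less RNA per cell cannot be told apart.

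**Figure D3:**
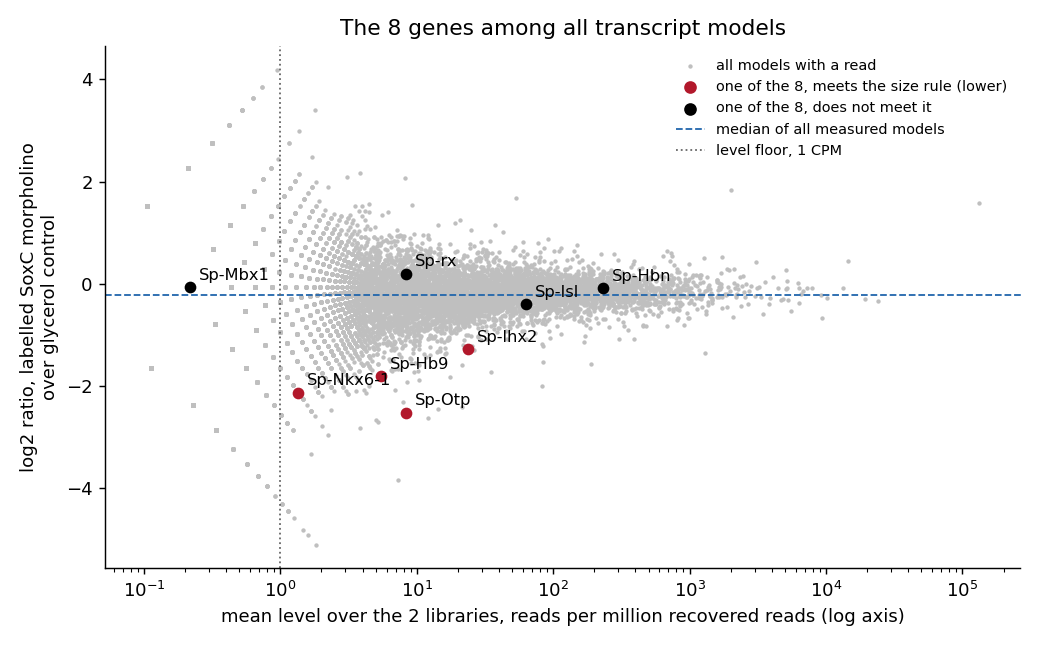
Log2 ratio (labelled SoxC morpholino over glycerol control, y axis) against the mean level over the 2 libraries in CPM (x axis, log), with every transcript model as a grey point and the 8 genes named. Sp-Otp, Sp-Hb9 and Sp-lhx2 lie toward the lower side of the cloud. They rank 43rd, 136th and 402nd from the lowest log2 ratio of 8819 models. Sp-Nkx6-1 lies near the level floor of 1 CPM, and Sp-Hbn and Sp-Isl lie within the cloud.

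Other homeobox genes were followed through a list of 95 names, of which 63 occurred in the tables and led to 55 further models with a value. Of these, 47 passed the floor. By the size rule 5 were lower (10.6%), beside 4.75% of all models past the floor, none was higher and 42 met neither. Their median log2 ratio was -0.37, beside -0.21 for all models. The list was chosen with earlier results known, so these counts are a description. The lowest by its interval was the POU homeobox gene Sp-Brn1-2-4, whose relatives act in neural precursors of vertebrates, at 155 reads in the library labelled SoxC morpholino and 591 in the glycerol control, 3.97-fold lower (3.32 to 4.77). Sp-lox was 2.86-fold lower (1.58 to 5.43), and its name alone does not settle that it is a homeobox gene. It is nevertheless counted among the 5 lower and the 47 past the floor. Sp-Lmx1, a LIM homeobox gene whose relatives act in dopaminergic and serotonergic neurons of vertebrates, was 2.37-fold lower (1.41 to 4.1), from 22 and 50 reads. The others were the ParaHox gene Sp-Xlox, 2.02-fold lower (1.30 to 3.19), and the head patterning gene Sp-Otx, 2.60-fold lower (1.21 to 6.07).

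Grouped by homeobox class, a grouping made after the values were seen, each class of the 8 genes also held genes that did not meet the rule. In the LIM class, 1 of 3 other genes past the floor was lower, Sp-Lmx1, while Sp-Lim1 had 481 reads in the library labelled SoxC morpholino and 600 in the glycerol control, and Sp-Awh had 24 and 26. Sp-Lhx3-4 lay under the floor with 3 and 0 reads. In the paired class, 1 of 8 others was lower, Sp-Otx, and log2 ratios ran from -1.34 for Sp-Otx to 0.52 for Sp-Alx4, a gene of the skeletogenic mesoderm. Of the 5 other genes named as NK genes in the list, none met the rule, with log2 ratios from -0.68 to 0.15. The lowest of them was Sp-Nk7, with 511 reads in the library labelled SoxC morpholino and 788 in the glycerol control. Hb9 genes are related to the Hox and ParaHox genes, and of 10 other such genes past the floor 1 was lower, Sp-Xlox, and 9 met neither direction. Their log2 ratios ran from -1.98 for Sp-Gsx, with 2 reads in the library labelled SoxC morpholino and 9 in the glycerol control, to 1.71 for Sp-Hox11/13c, with 8 and 2. The Hox-related gene with the most reads was Sp-Hox7, at 6136 and 7107, a log2 ratio of -0.27. Sp-lox was left out of this class because of its uncertain name.

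Likeness to a lower gene was measured as the absolute difference in log2 ratio between the 2 libraries, so it rests on a single ratio per gene. Among the 47 other homeobox models, Sp-Brn1-2-4 lay nearest to both Sp-Otp, at a difference of 0.54, and Sp-Nkx6-1, at 0.14. With a log2 ratio of -1.99 it was the lowest of the 47, so it had to be nearest to any gene below it. Sp-Gsx, at -1.98, lay almost as near to both. The gene nearest to Sp-Hb9 was Sp-Gsx, at 0.18, from 2 reads in the library labelled SoxC morpholino and 9 in the glycerol control. Sp-Gsx did not meet the size rule.

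From a list of 38 names of neural regulators, 23 occurred in the tables, and 19 models passed the floor. Of these 19, 4 were lower (21.1%), beside 4.75% of all models past the floor, and 14 met neither direction. The 1 that was higher made up 5.26%, beside 0.658% of all models. This list was chosen with earlier results known, so its counts are a description. The median log2 ratio was -0.44. The higher one was Sp-SoxC itself. The lower ones were the zinc finger genes Sp-z167, 15.9-fold lower (5.89 to 60.1), and Sp-IA-1, 3.33-fold lower (2.56 to 4.38), the forkhead gene Sp-FoxD, 3.04-fold lower (2.18 to 4.29), and Sp-Hey, a gene for a repressor downstream of Notch. Sp-Hey had 0 reads in the library labelled SoxC morpholino and 13 in the glycerol control. It was 4.51-fold lower when a floor of 3 reads stands in for the 0. The counting interval of the counts themselves reaches down to 3.17-fold. With Sp-Hey at 3 reads the list median was also -0.44. The apical genes Sp-FoxQ2 and Sp-fez met neither direction, as did Sp-Hbn and Sp-rx. Sp-FoxQ2 had 315 reads in the library labelled SoxC morpholino and 410 in the glycerol control, and Sp-fez had 189 and 271. Sp-FoxQ2 was 1.35-fold lower (1.17 to 1.57) and Sp-fez 1.49-fold lower (1.23 to 1.81), both short of the 2-fold limit. Their intervals excluded 1, unlike those of Sp-Hbn and Sp-rx as deposited. Another model named Sp-FoxQ2 had a log2 ratio of -0.20 and also met neither direction.

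**Figure D4:**
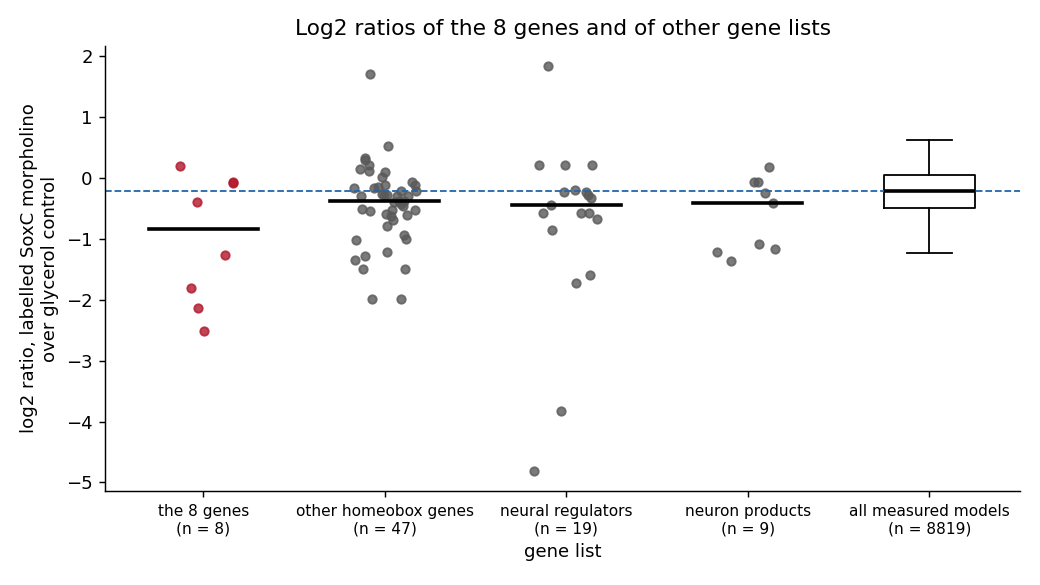
Log2 ratio (labelled SoxC morpholino over glycerol control) for the 8 genes (all 8 shown), for the models past the floor of 3 other lists, and for all measured models as a box (quartiles, with whiskers at the 5th and 95th percentiles). Thick bars are medians, at -0.84 for the 8 genes, -0.37, -0.44 and -0.41 for the lists and -0.21 for all models, the dashed line repeats the last of these, and the point of Sp-Hey rests on 0 reads in 1 library and depends on the pseudocount.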

How the data were processed

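The authors deposited 1 normalized signal value per transcript model and library. Per the submitters' processing notes the tools included CASAVA 1.8 and Bowtie. How reads were counted and scaled, and on which genome build, is not given in the sources used here. The barcode and lane in the 2 column headers are identical. Whether the libraries were sequenced together is not settled by this, and a sequencing difference cannot be told apart from a difference between the conditions. Within a library the deposited signal was a multiple of 1 step, 2.54 in the library labelled SoxC morpholino and 2.65 in the glycerol control, and division by it gave whole reads within 0.1 for 99.90% and 99.71% of models. Models repeated on several rows were used once, and blank values (4326 models) were treated as missing. The Sp-lhx2, Sp-Nkx6-1 and Sp-Isl models stand on more than 1 row, and related genes can share reads.

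The deposited scaling was kept. For log2 ratios 0.5 reads were added to each count, so changes of genes with few reads are understated, and folds had no such addition. Intervals are exact Clopper-Pearson intervals (95%) of the 2 read counts, and ratios of ratios have exact conditional intervals. Whether reads stem from separate molecules is unknown, so intervals and floors take in counting error only. Computation used Python 3.11.15 and scipy 1.17.1.

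The 8 genes and the lists were chosen with earlier results of these data known. The genes named are these 8, Sp-SoxC, list members that met the size rule (up to 6 per direction), and for each lower gene the other homeobox gene nearest in log2 ratio (that of Sp-lhx2 is not reported here). Names outside this were chosen after their values were seen. Prep and Sip1 were left out of the lists because their names are ambiguous. The planned promoter and protein comparison was not made.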

Additional observations from a re-analysis of the deposited data

How the results depend on the processing

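The number of lower genes among the 8 was 4 as deposited and 3 or 4 under every alternative run. Sp-Otp and Sp-Hb9 were lower under each of them. Sp-Nkx6-1 was lost with the median of ratios, the upper quartile, a floor of 5 CPM, totals that leave out the most abundant model and the exact binomial test, and Sp-lhx2 was lost at 3-fold. None of the 8 was higher under any alternative. The median of the 8 log2 ratios stayed between -0.89 and -0.63. Of 48 log2 ratios of single genes, 45 stayed within their counting interval, and the other 3 were Sp-Hbn, at 0.13 with the median of ratios and 0.08 with the upper quartile and with totals that leave out the most abundant model.

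Counts over all models moved more. Against 419 lower and 58 higher as deposited, there were 210 lower and 137 higher with the median of ratios, 247 and 111 with the upper quartile, and 246 and 118 with totals that leave out the most abundant model. There were 157 and 14 with a floor of 5 CPM, 874 and 142 at 1.5-fold, 170 and 27 at 3-fold and 760 and 186 by fold alone. With recovered reads in an exact binomial test, Benjamini-Hochberg adjusted over all models, there were 234 and 26; this test compares 2 libraries and not the conditions. It and the totals without the most abundant model were chosen after seeing the data. Other homeobox genes went from 5 lower to 9 at 1.5-fold, 1 at 3-fold and 9 with the fold alone, which also gave 1 higher. Wider or narrower limits change the counts by construction. Another scaling moves every log2 ratio by the same amount, and the counts follow from that. The shift was 0.21 with the median of ratios and 0.16 with the upper quartile. It was also 0.16 with totals that leave out the most abundant model. Why the scalings differ was not tested. No paired analysis was possible because there was a single library in each group. Depth limits Sp-Mbx1 and Sp-Nkx6-1 most, since 1 read is 0.210 CPM in the library labelled SoxC morpholino and 0.227 CPM in the glycerol control.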

Other observations

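Genes for products of differentiated neurons were followed through 30 names, of which 15 occurred in the tables. Of these, 12 models had a value and 9 passed the floor. By the size rule 2 were lower (22.2%), beside 4.75% of all models past the floor, none was higher and 7 met neither. The median log2 ratio was -0.41, beside -0.21 for all models. This list too was chosen with earlier results known, so its counts are a description. Sp-GAD, glutamate decarboxylase of GABA synthesis, was 2.14-fold lower (1.65 to 2.79), with 88 reads in the library labelled SoxC morpholino and 181 in the glycerol control. Sp-VAChT, the vesicular acetylcholine transporter, was 2.60-fold lower (1.60 to 4.37), from 24 and 60 reads. The following genes were named after their values were seen. Sp-TPH, tryptophan hydroxylase of serotonin synthesis, had 1 read in the library labelled SoxC morpholino and 5 in the glycerol control and lay under the floor. Sp-TH, tyrosine hydroxylase of dopamine synthesis, had 6 reads in each library. Sp-Snap25, a gene of synaptic vesicle fusion, had 232 reads in the library labelled SoxC morpholino and 196 in the glycerol control, the vesicle gene Sp-Syt1-2 had 86 and 110, and the ion channel gene Sp-trpa1 had 143 and 162. Sp-ChAT had 9 and 9, Sp-Ddc 6 and 14 and Sp-Hdc 3 and 7. The part of neuron number in the values of the homeobox genes was not tested.

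Of the 11 markers of germ layers and territories with a value, 9 passed the floor, and none of these 9 met the size rule. In the library labelled SoxC morpholino and the glycerol control, the skeletogenic matrix gene SpSM50 had 3720 and 3652 reads and the pigment cell regulator Sp-gcm 2861 and 2208. The endoderm genes Sp-FoxA and Blimp1 had 5988 and 6291 reads and 14 and 22 reads, with log2 ratios of -0.13 and -0.69. The apical genes Sp-Six3 and Sp-FoxQ2 had 1416 and 1478 reads and 315 and 410 reads, with log2 ratios of -0.12 and -0.44. The oral ectoderm genes Sp-gsc and Sp-Nodal were at log2 ratios of 0.30 and 0.14, and the aboral ectoderm gene Sp-Tbx2-3 at -0.24. The markers under the floor could not meet the rule. They were the skeletogenic regulator Sp-Alx1, with 7 and 2 reads, and Sp-TPH, the 1 neuron marker with a value.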
